A study of Drosophila mojavensis with 95 samples.

Results

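The transcripts described here are those of Drosophila mojavensis that were higher after 9 h of desiccation than at 0 h and, averaged over the study, hardly moved from 9 to 18 h. The log2 levels of the arrays were averaged within each of the 24 groups, and the 8 group means of each time were then averaged with equal weight. A transcript was eligible when its mean changed by less than 0.15 on the log2 scale between 9 and 18 h, and the 100 eligible transcripts with the highest difference between 9 and 0 h were taken. They are 100 of 14528 transcripts, of which 11689 (80.5%) met the limit. Both differences chose the members, so their values over the whole study are a description and were not tested.

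Drosophila mojavensis is a fly of the North American deserts that feeds and breeds in rotting cactus. Small insects lose water quickly through the cuticle, the spiracles and excretion, and survival in dry air depends on slowing that loss and on the water and energy stores they carry. Prolonged desiccation also withholds food, so that genes of water balance, stress protection and fuel use can all change over the hours of an exposure.

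Virgin wild-type females were measured as whole bodies on 95 single-colour NimbleGen arrays. They came from Punta Onah (PO) and Organ Pipe National Monument (OPNM) on the Sonoran side and from Punta Prieta (PP) and San Quintin (SQ) in Baja California. Each population was reared on agria or organ pipe cactus and sampled after 0, 9 or 18 h of desiccation, which gives 8 combinations of population and diet at 3 times, with 3 to 5 arrays a group and 31, 31 and 33 arrays at the 3 times. Undesiccated flies held for the same hours are not among the 24 groups, so hours of desiccation and hours as such cannot be told apart. RNA of a whole body mixes all tissues, and fewer cells of a type and less RNA per cell cannot be told apart. What a replicate is, a culture, an extraction or a repeat array, is not given in the labels, and p-values measure the spread between these arrays only. The files pair no transcript with a gene name, and none of the 14528 identifiers occurs in the gene table given for the species, so members appear by FlyBase transcript identifier and their functions are not given.

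Some arrays stood apart, and several results that rest on them are given with and without them. Across 289 transcripts that differed at least 1.5-fold between regions or populations, 7 arrays lay nearer to another population than to their own. For 5 of these the distance to their own was 1.04 to 1.28 times that to the nearest, but replicate 3 of PP on organ pipe at 0 h lay 2.58 times as far from PP as from SQ, and replicate 4 lay 5.55 times as far from PP as from PO. These transcripts were chosen on the same arrays, so the comparison is a description. Within groups, arrays also differed along a shared axis, the first component of the deviations of arrays from their group means, which held 41.8% of the within-group variance against 6.77% for the next. Its sign was set so that the score of an array is high where the spread of its log2 values over transcripts is small (r = -0.97 across the 95 arrays), and loadings were scaled to a root mean square of 1 over all transcripts.

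Over the whole study the 100 members had a median log2 level of 10.78 at 0 h, 11.34 at 9 h and 11.43 at 18 h. Their difference between 9 and 0 h ran from 0.50 to 1.08 on the log2 scale, with a median of 0.56, or 1.47-fold. Over all transcripts the median difference was 0.01. From 9 to 18 h the members' mean changed by between -0.13 and 0.15, with a median of 0.09. As a set they lay somewhat above the middle of all transcripts in level: their mean levels lay between the 43.2 and the 92.6 percentile, with a median of 64.0. At the edge of the rule, the last member differed by 0.5003 between 9 and 0 h and the first transcript outside by 0.4999. The member nearest to the limit changed by 0.149 from 9 to 18 h, and the nearest transcript that was left out, with a difference of 0.55 between 9 and 0 h, by 0.151. Of 171 transcripts at least as high in the first difference as the last member, the limit left out 25 that were higher at 18 h than at 9 h and 46 that were lower.

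The members were of 2 kinds when their spread inside groups was examined, a measure the rule did not use. Loadings on the shared axis left a gap between 0.95 and 1.75, with 28 members below it and 72 above it. The 72 had loadings up to 3.50 with a median of 3.09, close to the highest of any transcript (3.57), whereas 14.1% of all transcripts lay above the middle of the gap. The division was made after the values were seen and is a description. The 72 are called co-varying members here, and the 28, whose median loading was -0.09, are called steady members.

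**Figure D1:**
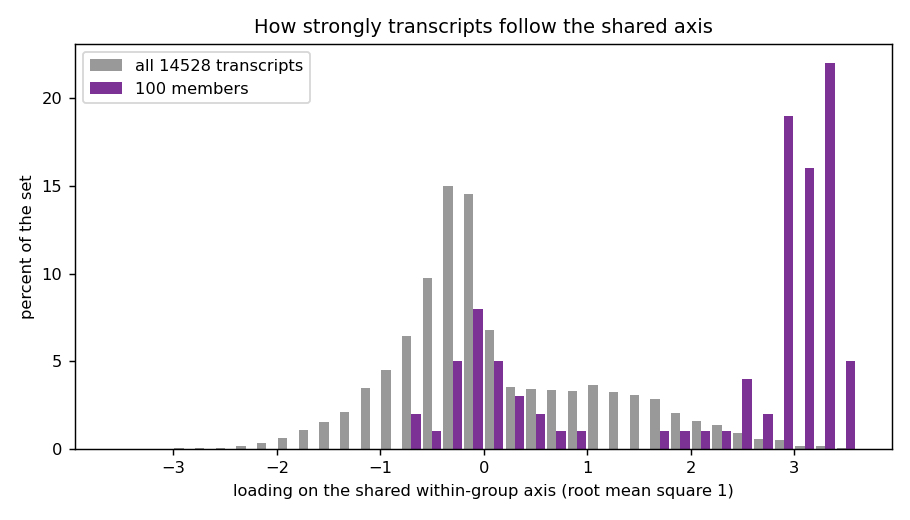
Share of all transcripts (grey) and of the 100 members (purple), in percent of each set, by loading on the shared within-group axis (no unit, root mean square 1 over all transcripts). The members fall into a broad group around 0 and a larger group around 3, with an empty stretch from 0.95 to 1.75.

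Within groups the co-varying members went up and down together. The median correlation between a pair of them, over deviations of the 95 arrays from their group means (71 degrees of freedom), was 0.92, and pairs ranged from 0.45 to 0.98. Between pairs of steady members the median was 0.29, with a range from -0.32 to 0.75. These correlations share the arrays and are descriptions. The 72 members therefore carry much the same information on each array, and a count of them is not a count of independent transcripts. Their within-group standard deviation (SD) had a median of 0.49 on the log2 scale, against 0.19 for the steady members and 0.20 for all transcripts.

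Array by array, the steady members separated 0 h from 9 h and the co-varying members did not. Neither kind separated 9 h from 18 h. The rule used the difference between 0 and 9 h, and the kinds were split by how they varied inside groups. The contrast between the kinds is thus a description. The mean level of the 28 steady members ran from 10.83 to 11.48 over the 31 arrays at 0 h, with a median of 11.00. At 9 h the range was 11.53 to 11.86, with a median of 11.66, and at 18 h it was 11.46 to 11.94, with a median of 11.71. No 0 h array reached the lowest 9 h array, in any population or diet, but the highest 0 h array lay just above the lowest at 18 h. The mean level of the 72 co-varying members ran from 9.69 to 11.84 at 0 h (median 10.66), from 9.77 to 12.40 at 9 h (median 11.25) and from 10.44 to 12.51 at 18 h (median 11.40). These ranges overlapped widely. The score on the shared axis moved alongside, with a median of -13.3 at 0 h, 5.36 at 9 h and 9.86 at 18 h and ranges from -47.3 to 36.7, from -44.0 to 55.0 and from -24.3 to 65.5. Its part in the difference between times was not tested. With the axis projected out of the values, the median difference between 9 and 0 h was 0.10 for the co-varying and 0.61 for the steady members. As deposited it was 0.55 and 0.61. The kinds were split by loading on this axis. A small effect on the steady members and a larger effect on the co-varying members were thus fixed in advance, and nothing is read from them.

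**Figure D2:**
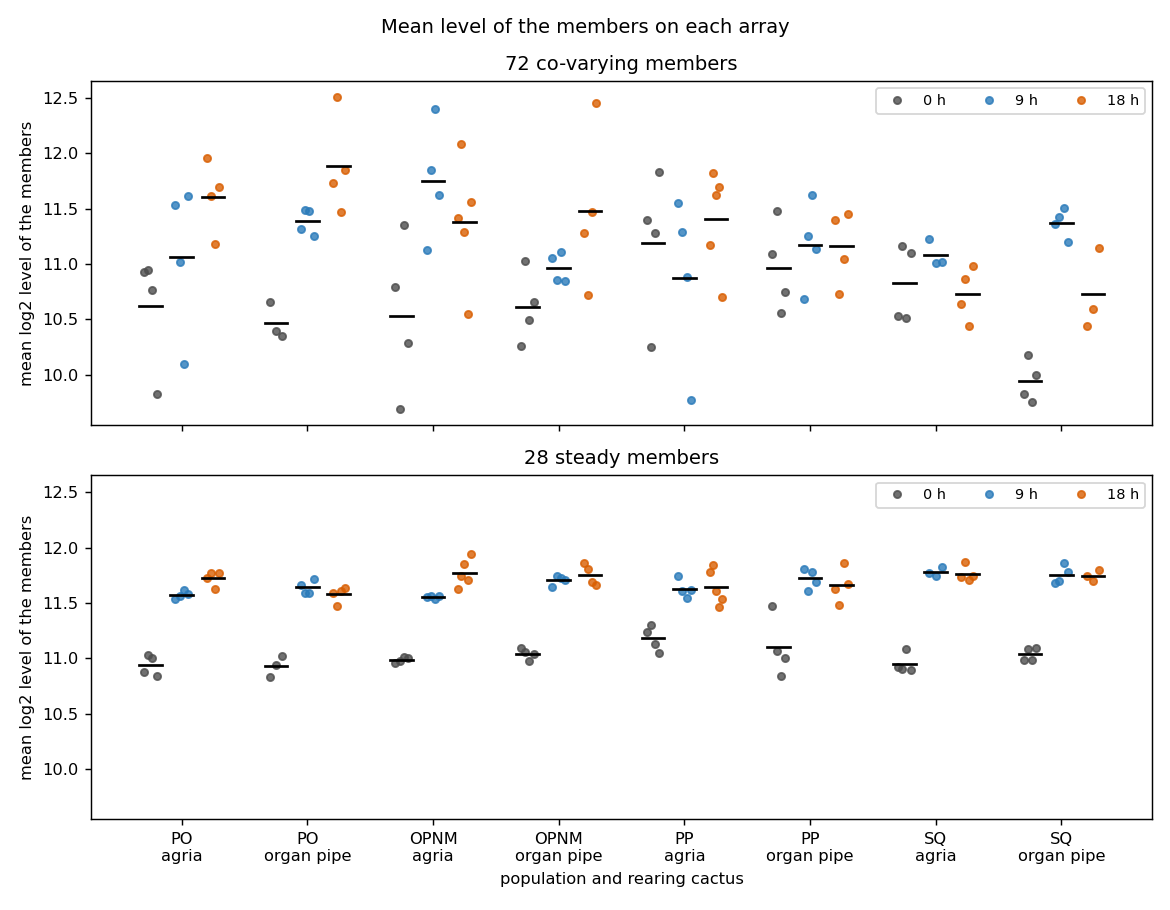
Mean log2 level of the 72 co-varying members (top) and of the 28 steady members (bottom) on each of the 95 arrays, by population, rearing cactus and hours of desiccation. Points are arrays and black bars are group means. The steady members lie at 10.83 to 11.48 at 0 h and at 11.46 or above later in all 8 combinations, while the co-varying members spread by more than 1 log2 unit inside several groups.

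FBtr0173286, a steady member, had the highest difference between 9 and 0 h of all members. In PO its lowest, median and highest log2 levels were 10.65, 11.64 and 11.77 at 0 h, 12.14, 12.35 and 12.58 at 9 h, and 12.53, 12.70 and 12.89 at 18 h. In OPNM they were 11.25, 11.38 and 11.73, then 12.42, 12.58 and 12.83, then 12.53, 12.78 and 13.15. These Sonoran arrays showed no overlap between 0 and 9 h, and the highest levels came at 18 h. In SQ the levels were 10.49, 11.05 and 11.50 at 0 h, 12.43, 12.70 and 12.91 at 9 h, and 12.26, 12.38 and 12.67 at 18 h. In PP the 0 h arrays already stood at 10.99, 12.10 and 12.44, against 12.28, 12.68 and 12.80 at 9 h and 12.06, 12.32 and 12.70 at 18 h. PP thus began high, and its lowest 0 h array was replicate 3 on organ pipe, which lay nearer to SQ; the other 7 were between 11.98 and 12.44. Averaged over the combinations the difference between 9 and 0 h was 1.08, and from 9 to 18 h it was 0.01.

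FBtr0171513, second in that difference, is also steady. Its 31 arrays at 0 h had a lowest, median and highest level of 11.26, 12.21 and 12.81, those at 9 h 12.82, 13.22 and 13.50, and those at 18 h 12.76, 13.12 and 13.47. The highest 0 h array and the lowest 9 h array came within 0.01 of each other without overlap. The mean difference was 1.03 from 0 to 9 h and -0.10 from 9 to 18 h.

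FBtr0163319, the member with the highest loading on the shared axis, was chosen after its values were seen to show the co-varying pattern. Its levels were 9.15, 10.33 and 11.77 at 0 h, 9.36, 11.06 and 12.23 at 9 h, and 10.05, 11.10 and 12.41 at 18 h (lowest, median and highest). Single arrays of each time spanned more than 2 log2 units, which is several times the difference between the medians.

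**Figure D3:**
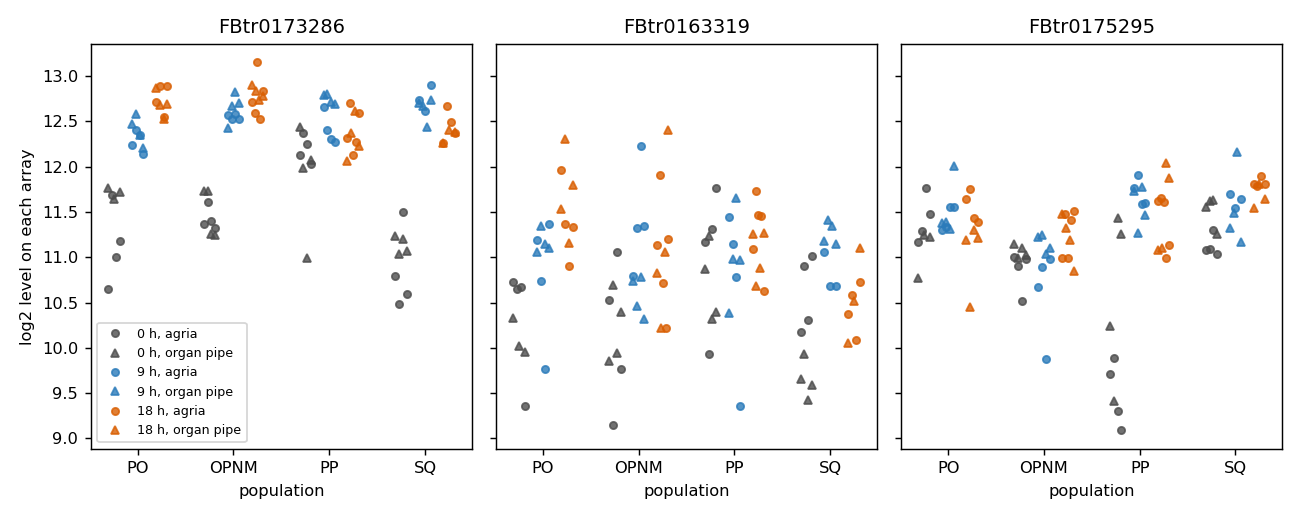
Log2 level on each array of FBtr0173286 (steady, highest difference between 9 and 0 h), FBtr0163319 (co-varying, highest loading) and FBtr0175295 (steady, called for a lower 9 h change in SQ than in PP), by population, time (colour) and rearing cactus (circles for agria, triangles for organ pipe). FBtr0173286 starts high in PP, FBtr0175295 starts low on most PP arrays, and FBtr0163319 spreads widely inside every population.

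Group means took different courses in the 8 combinations. All 8 had a higher mean at 9 h than at 0 h for 29 members, 26 of them steady and 3 co-varying; 7.95% of all transcripts had this, and since the rule used this difference nothing is read from the count. Another 70 members were higher in 7 combinations and 1 in 6. For the co-varying members the exception was PP on agria, where 3 of 72 were higher at 9 h (46.5% of all transcripts were). For the 28 steady members, 27 or 28 were higher at 9 h in every combination. Of all transcripts, 55.9% and 50.3% were higher at 9 h in PO on agria and organ pipe, 47.5% and 51.3% in OPNM, 46.5% and 47.3% in PP, and 49.1% and 47.7% in SQ.

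From 9 to 18 h no member stayed within 0.15 in all 8 combinations. Of the co-varying members, 8 stayed within it in none, 59 in 1, 4 in 2 and 1 in 3. The combination with the flat course was mostly PP on organ pipe, where 62 of 72 stayed within the limit, as did 70.3% of all transcripts. Elsewhere they went further up or came back down nearly as a block. Of the 72, 72 were higher by at least 0.15 at 18 h in PO on agria, 70 in PO on organ pipe, 72 in OPNM on organ pipe and 71 in PP on agria, where 25.5%, 31.1%, 25.9% and 22.9% of all transcripts were. They were lower by at least 0.15 at 18 h for 71 in OPNM on agria, 68 in SQ on agria and 72 in SQ on organ pipe, where 21.1%, 26% and 32.1% of all transcripts were. The flat mean of the co-varying members over the study thus averages group means that went up in 4 combinations and down in 3. Since the 72 move together, each of these counts is close to a single measurement. None of the late changes of their mean in single combinations, given next, exceeded 2 standard errors. Neither a plateau nor opposite courses inside the combinations is thus established for these members. Averaged over both diets, their mean changed from 9 to 18 h by 0.52 ± 0.23 (standard error) in PO and -0.50 ± 0.25 in SQ. Both passed 2 standard errors, SQ only just. In OPNM and PP the changes were 0.07 ± 0.23 and 0.26 ± 0.23. The rule held the mean over all combinations near 0, so opposite signs are not read as a result.

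The mean level of the 72 changed from 0 to 9 h by 0.45 ± 0.33 in PO on agria (standard error, SE, from the SD pooled over the 24 groups; 4 arrays at each time) and by 0.91 ± 0.35 in PO on organ pipe (3 and 4 arrays). In OPNM it changed by 1.22 ± 0.33 on agria and 0.36 ± 0.33 on organ pipe. In PP it changed by -0.31 ± 0.33 on agria and 0.21 ± 0.33 on organ pipe, and in SQ by 0.26 ± 0.35 and 1.44 ± 0.33. From 9 to 18 h the changes on agria and organ pipe were 0.54 ± 0.33 and 0.50 ± 0.33 in PO, -0.37 ± 0.31 and 0.51 ± 0.33 in OPNM, 0.53 ± 0.31 and -0.02 ± 0.33 in PP, and -0.35 ± 0.35 and -0.65 ± 0.35 in SQ. In single combinations, only the changes from 0 to 9 h in PO on organ pipe, OPNM on agria and SQ on organ pipe exceeded 2 SE. No change from 9 to 18 h in a single combination did. The rule chose members by the means of these changes over the combinations, so this is a description and not a test. The negative change in PP on agria rested on replicate 4 at 9 h, at 9.77 against 10.88 to 11.55 on the other 3 arrays: without it the change was 0.05. Without replicate 2 at 0 h, at 10.25, it was -0.63. Replicate 4 at 0 h and replicate 1 at 9 h also moved it by over 1.5 times, to -0.10 and -0.54. In PO on agria the change from 0 to 9 h was 0.18 without replicate 4 at 0 h, and 0.29, 0.77 and 0.26 without replicates 1, 3 and 4 at 9 h. In SQ on agria it was 0.16 and 0.15 without replicates 1 and 3 at 0 h. In PP on organ pipe it was 0.38, 0.07 and 0.13 without replicates 2, 3 and 4 at 0 h, and 0.37 and 0.06 without replicates 1 and 3 at 9 h. Single arrays also moved the changes from 9 to 18 h. These became 0.22 in PO on agria without replicate 3 at 9 h, 0.30 in PO on organ pipe without replicate 2 at 18 h, and 0.19 in OPNM on organ pipe without replicate 4 at 18 h. In OPNM on agria the later change was -0.58 and -0.16 without replicates 1 and 3 at 9 h and -0.16 without replicate 4 at 18 h, and in PP on agria it was 0.16 without replicate 4 at 9 h. In PP on organ pipe it ran from -0.18 to 0.13 when single arrays were left out, and in SQ from -0.44 to -0.25 on agria and from -0.85 to -0.51 on organ pipe. Apart from PP, the sign of both changes held without any single array. In PP on organ pipe, leaving out the 2 arrays at 0 h that lay nearer to other populations turned the change from 0.21 to -0.11, and the co-varying members higher at 9 h fell from 71 to 9 of 72.

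The 28 steady members stayed within 0.15 from 9 to 18 h in 1 to 7 combinations each. In at least 4 combinations 22 of the 28 (78.6%) and 0 of the 72 co-varying members did, and 60.3% of all transcripts. Since the rule bounded the mean of these changes, nothing is read from the counts. Per combination the members within the limit numbered 18 and 12 in PO on agria and organ pipe, 7 and 18 in OPNM, 22 and 16 in PP, and 15 and 15 in SQ. The share of all transcripts within it was 46.8% and 45.5% in PO, 56.9% and 45.3% in OPNM, 51.1% and 70.3% in PP, and 54.8% and 45.1% in SQ. In OPNM on agria 20 of the 28 were higher at 18 h by at least 0.15, and 22% of all transcripts were. The mean level of the 28 changed from 9 to 18 h by 0.22 ± 0.07 there (4 and 5 arrays) and by 0.15 ± 0.07 in PO on agria, with all 18 h arrays above all 9 h arrays in both. In the other 6 combinations it changed by between -0.06 and 0.05, each within 1 SE of 0. Its change from 0 to 9 h was between 0.45 ± 0.07 in PP on agria and 0.83 ± 0.08 in SQ on agria. Without the 2 arrays of PP on organ pipe at 0 h, the change there was 0.45 in place of 0.62.

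**Figure D4:**
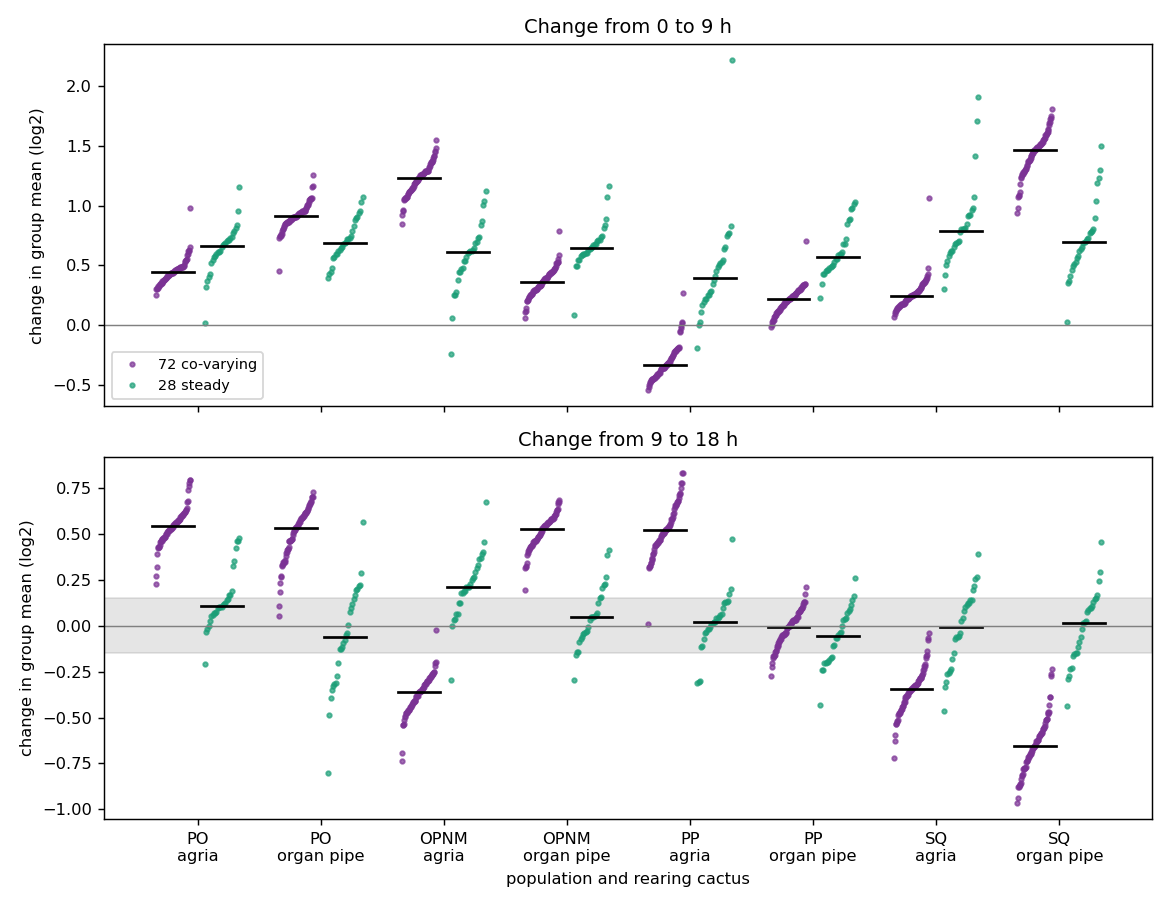
Change in group mean (log2) of each member from 0 to 9 h (top) and from 9 to 18 h (bottom) in the 8 combinations of population and rearing cactus, for 72 co-varying (purple) and 28 steady (green) members. Points are members sorted by value, black bars are medians, and the grey band is the limit of 0.15 either side of 0. The purple points leave the band upward in 4 combinations and downward in 3, and the green points straddle it.

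The array-by-array separation from 0 to 9 h differed between the kinds in 6 of the 8 combinations, and in PO and SQ on organ pipe nearly all members of both kinds were separated. Every 9 h array lay above every 0 h array for 26 of 28 steady members in PO on agria, 27 in PO on organ pipe, 25 in each OPNM combination, 15 and 12 in PP on agria and organ pipe, and 27 in each SQ combination. Of the 72 co-varying members, 71 were separated in PO on organ pipe and 72 in SQ on organ pipe, but 1, 8, 6, 0, 0 and 1 in PO on agria, OPNM on agria, OPNM on organ pipe, PP on agria, PP on organ pipe and SQ on agria. Of all transcripts, 5.97% and 20.5% were separated in PO on agria and organ pipe, 7.67% and 9.09% in OPNM, 4.49% and 2.23% in PP, and 8.96% and 24.2% in SQ. Since the rule used this difference, these counts are descriptions. Without the 2 arrays of PP on organ pipe at 0 h that lay nearer to other populations, 13 steady and 0 co-varying members were separated there, and 4.64% of all transcripts were.

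Comparisons between regions, populations and diets did not enter the rule and were tested. A model of the 24 group means was fitted to all transcripts with limma, and members were called at a Benjamini-Hochberg adjusted p under 0.05 over all transcripts. Errors of these contrasts are SE of the fit to all 95 arrays. In 3 comparisons of level over all times, 62 members were called at least once, and 49.3% of all transcripts were. By kind these were 26 of 28 steady and 36 of 72 co-varying members, and 7 members, all steady, were called in all 3. The share of all transcripts called in all 3 is not given, so nothing is read from the 7. The kinds also differed in precision. For level between regions, the median half-width of the 95% interval was 0.08 for the steady and 0.20 for the co-varying members. Smaller differences could thus be called for steady members, and a higher count among them is not read as a larger difference, here or below.

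Between regions, 33 members differed in level, close to the 34.8% of all transcripts that did. The 21 lower in Baja California than in Sonora (16.7% of all transcripts) comprised 15 co-varying and 6 steady members, and the 12 that were higher (18.1% of all transcripts) were all steady. With the shared axis projected out, 30 were higher and 24 lower, and 40.5% of all transcripts were called. FBtr0169155 was higher in Baja California by 0.42 ± 0.05 (limma, adjusted p 1.82e-09), with mean levels of 10.97 in PO, 10.54 in OPNM, 11.35 in PP and 10.99 in SQ. Its PO and SQ means lay side by side, with OPNM below and PP above them. FBtr0175606 was higher by 0.39 ± 0.04 (limma, adjusted p 3.22e-11), with 10.59, 10.78, 10.95 and 11.19 in the same order. Both Baja means stood above both Sonoran means for this transcript. FBtr0161961, co-varying, was lower by 0.92 ± 0.11 (limma, adjusted p 1.75e-10), at 11.89 and 11.87 in PO and OPNM and 11.18 and 10.74 in PP and SQ. FBtr0164801, also co-varying, was lower by 0.75 ± 0.11 (limma, adjusted p 8.26e-08). A region stands for 2 populations only: with population as a random block, 15 members were called. The share of all transcripts called with this block is not given, here or below.

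Inside Sonora, 21 members differed in level between OPNM and PO, and 15.3% of all transcripts did. Higher in OPNM were 13 steady and 2 co-varying members, and lower were 5 steady and 1 co-varying. Of all transcripts 8.91% were higher and 6.35% lower. FBtr0167243 had the largest difference, 0.70 ± 0.07 (limma, adjusted p 6.08e-14). At 18 h its lowest, median and highest levels were 10.16, 10.75 and 10.99 in PO and 11.37, 11.59 and 11.81 in OPNM, without overlap. At 9 h they were 10.89, 11.22 and 11.46 in PO and 11.44, 11.64 and 11.71 in OPNM, with a slight overlap. The PO means at 0, 9 and 18 h were 10.33, 11.20 and 10.70 and the OPNM means 11.15, 11.59 and 11.60, but neither time step differed past the threshold. FBtr0164797 was higher in OPNM by 0.55 ± 0.14 (limma, adjusted p 0.00355), but not past the threshold without the arrays of OPNM on agria (0.36, adjusted p 0.224). FBtr0165004 was lower in OPNM by 0.50 ± 0.15 (limma, adjusted p 0.0142), and FBtr0169155 by 0.44 ± 0.08 (limma, adjusted p 9.87e-06).

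Inside Baja California, 38 members differed in level between SQ and PP, where 16.3% of all transcripts did, and 32 of them were lower in SQ. Of all transcripts 4.83% were lower and 11.5% higher. The 26 co-varying members among them were all lower. Of the 12 steady members, 6 were higher and 6 lower. With the shared axis projected out, 16 members were called, 9 higher and 7 lower, and 10.7% of all transcripts were. Of these members 5 were co-varying and 11 steady. FBtr0175465 was higher in SQ by 0.45 ± 0.06 (limma, adjusted p 2.93e-08): its levels were 12.70 to 13.09 at 9 h and 12.75 to 13.18 at 18 h in SQ, and 12.14 to 12.75 and 12.12 to 12.73 in PP. The populations were separate at 18 h and overlapped slightly at 9 h. FBtr0175295 was higher by 0.50 ± 0.10 (limma, adjusted p 0.000167). Its SQ and PP means were 11.32 and 10.04 at 0 h, 11.58 and 11.64 at 9 h, and 11.75 and 11.46 at 18 h. The difference thus came mainly from low PP levels at 0 h. These low levels also made it a member, so this call is a description. FBtr0162748 and FBtr0161430, both co-varying, were lower by 0.51 ± 0.15 and 0.50 ± 0.15 (limma, adjusted p 0.0133 and 0.0177). The count of 38 was unstable. For the array sets below, shares of all transcripts called are not given, so nothing further is read from the counts. The count ran from 17 to 73 when single arrays were left out. It was 60 without the 2 arrays of PP on organ pipe at 0 h. It became 69 and 17 without replicates 2 and 4 of PP on agria at 0 h, and 18, 24 and 73 without replicates 1, 2 and 4 of that combination at 9 h. Without replicate 2 of PP on organ pipe at 0 h it was 18, without replicate 3 at 9 h 21, without replicate 1 or 3 of SQ on agria at 0 h 25, and without replicate 1 of SQ on organ pipe at 18 h 21.

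Rearing cactus called no member for level, and 0.0138% of all transcripts were called by limma. An unadjusted p under 0.05 was reached by 1 member and by 470 of the 14528 transcripts. The median difference, organ pipe minus agria, was -0.07 for the co-varying and 0.01 for the steady members, with a median half-width of the 95% interval of 0.20 and 0.08.

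Whether the change from 0 to 9 h differed was tested next. Between SQ and PP it differed for 9 members, 8 steady and 1 co-varying, where 1.23% of all transcripts were called. Of these, 8 had the higher change in SQ, between 0.70 and 1.70, against 0.19 to 0.71 in PP; 0.392% of all transcripts were called higher and 0.833% lower. The change in PO and OPNM, which did not enter this comparison, was 0.52 to 1.12 and 0.55 to 1.15 for the same 8. FBtr0173286 changed by 1.70 in SQ and 0.55 in PP, a difference of 1.16 ± 0.17 (limma, adjusted p 2.82e-05), and its levels above show that PP began higher rather than ended lower. Without the 2 arrays of PP on organ pipe at 0 h that lay nearer to other populations, the difference was 1.33 ± 0.16 (limma, adjusted p 4.14e-09). FBtr0162005, the co-varying member among the 9, changed by 1.38 in SQ and 0.49 in PP (difference 0.89 ± 0.23, limma, adjusted p 0.0362). With the shared axis projected out its difference was 0.44 and its adjusted p 0.127. Without those 2 PP arrays its difference was 1.13 ± 0.23 (limma, adjusted p 0.00131). Its PP arrays had a lowest, median and highest level of 10.49, 11.46 and 11.68 at 0 h, and its SQ arrays 9.85, 10.41 and 10.91.

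FBtr0175295 went the other way, with a change of 1.60 in PP and 0.26 in SQ (difference -1.34 ± 0.24, limma, adjusted p 0.00109). On agria its 4 PP arrays at 0 h lay at 9.09 to 9.88, below every 0 h array of the other 3 populations, and the 4 at 9 h lay at 11.59 to 11.91. On organ pipe its 0 h arrays in PP spread from 9.41 to 11.44. The highest of these, at 11.26 and 11.44, were the arrays that lay nearer to other populations, and without both the difference was -1.72 ± 0.21 (limma, adjusted p 2.63e-08). In PO and OPNM the change was 0.23 and -0.08, so that the mean rise of 0.50 which made it a member came mainly from PP. FBtr0175295 thus owes its membership mainly to the PP values that these comparisons use, and its calls are descriptions that do not stand apart from the rule. It was also the only member whose 9 h change differed between regions, by 0.85 ± 0.17 (limma, adjusted p 0.00919), where 0.234% of all transcripts were called. That call was lost with population as a random block (0.88, adjusted p 0.0814) and without the arrays of OPNM on agria (0.75, adjusted p 0.0811).

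**Figure D5:**
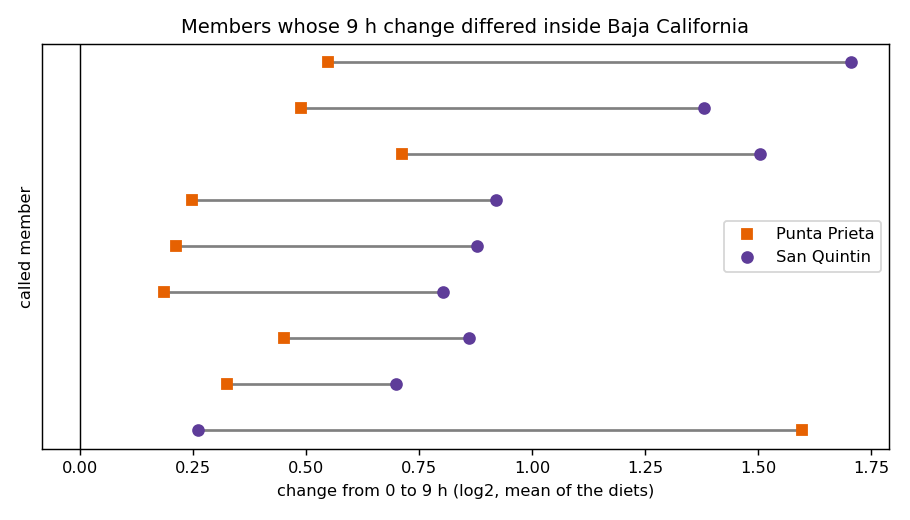
Change from 0 to 9 h (log2, mean of both rearing cacti) in Punta Prieta (squares) and San Quintin (circles) for the 9 members called for a difference between these populations, each on its own row. In 8 rows San Quintin is higher, at 0.70 to 1.70 against 0.19 to 0.71, and in the bottom row, FBtr0175295, it is lower.

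The co-varying members as a whole leaned the same way, and only FBtr0162005 passed with arrays weighted equally. Their median difference in the 9 h change between SQ and PP was 0.92, with a median half-width of the 95% interval of 0.69. An unadjusted p under 0.05 was reached by 69 of the 72, and by 3557 of the 14528 transcripts. Under limma's array weights 70 of the 72 were called, where 34.1% of all transcripts were. Whether they passed thus depended on how arrays were weighted. Since the 72 move together, their count is close to a single measurement. The mean of the 72 changed from 0 to 9 h by 0.85 ± 0.24 in SQ and -0.05 ± 0.23 in PP, and that of the 28 steady members by 0.77 ± 0.05 and 0.54 ± 0.05. The number called depended on single arrays. The shares of all transcripts called without these arrays are not given, so the counts below show only this dependence. Without the 2 arrays of PP on organ pipe at 0 h, 41 members were called, including the 9 called on all arrays: 28 co-varying and 13 steady, 40 of them higher in SQ. Without replicate 2 of PP on agria at 0 h 52 were called, without replicate 1 of PP on agria at 9 h 23, and without replicate 3 of PP on organ pipe at 0 h 19.

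Between OPNM and PO no member differed in the 9 h change by limma, and 0.413% of all transcripts were called. An unadjusted p under 0.05 was reached by 3 members and by 630 of the 14528 transcripts. The median difference was 0.09 for the co-varying and -0.04 for the steady members, with half-widths of 0.69 and 0.27. Diet called no member for the 9 h change either. Over all populations limma called 0% of all transcripts, and 3 members and 470 of the 14528 transcripts had an unadjusted p under 0.05. Inside OPNM limma called 0.0551% of all transcripts, and 17 members and 1826 transcripts had such a p. Without replicate 1 of OPNM on organ pipe at 0 h, 1 member was called there. With arrays weighted by limma's array weights, 69 members were called inside OPNM, 63 of them co-varying and 64 lower on organ pipe, and 30% of all transcripts were. The median difference between organ pipe and agria was 0.32 for the co-varying members over all populations, with a half-width of 0.49, and -0.88 inside OPNM, with a half-width of 0.96. For the steady members it was 0.07, with a half-width of 0.19, and 0.09, with a half-width of 0.37. Intervals for the co-varying members thus include differences as large as the change itself.

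The later step, from 9 to 18 h, differed between regions for 6 members, all steady, where 1.83% of all transcripts were called (0.544% higher and 1.29% lower). FBtr0173286 changed by 0.28 in Sonora and -0.26 in Baja California (difference -0.54 ± 0.12, limma, adjusted p 0.00271). FBtr0169155 changed by 0.38 in Sonora and -0.17 in Baja California (difference -0.55 ± 0.13, limma, adjusted p 0.00968). PO and SQ lay at the ends for this transcript, with 0.51 and -0.45, and PP changed by 0.10. FBtr0173959 showed the reverse, -0.20 in Sonora and 0.28 in Baja California (difference 0.48 ± 0.11, limma, adjusted p 0.00688). With population as a random block 3 of the members were called, and FBtr0173286 and FBtr0169155 were not among them (adjusted p 0.0812 and 0.0869).

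No member differed in the later step between OPNM and PO, between SQ and PP or between diets. Of all transcripts, limma called 0.11%, 0% and 0% in the same order. An unadjusted p under 0.05 was reached by 7, 42 and 3 members, and by 1811, 2762 and 659 of the 14528 transcripts. For SQ against PP the co-varying members' median difference was -0.76 with a half-width of 0.70, and their smallest adjusted p was 0.148. With array weights 69 members were called for SQ against PP, 65 of them co-varying and all 69 lower in SQ, where 38.3% of all transcripts were called. Whether the late changes of the co-varying members differed between these populations thus depended on how arrays were weighted.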

How the data were processed

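Levels of 14528 transcripts were measured on 95 arrays of 24 groups (population, rearing cactus and hours of desiccation, all from the labels). The deposited values are log2 levels per transcript that the authors made with RMA (background correction, quantile normalization and probe summary), per the submitters' processing notes, with no version given. Detection calls, scanner intensities and array positions were not used here, so the distance of a value from background is unknown. No array was dropped or imputed, and 0 columns lacked a sample.

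A mean per group was estimated for all transcripts (limma 3.58.1, R 4.3.3), which left 71 residual degrees of freedom; covariates were not used. The 13 tested contrasts weighted groups equally, tests were two-sided, and p-values were adjusted by the Benjamini-Hochberg method over all transcripts. The fit and the membership rule were tested on simulated data. The members, lists and comparisons were chosen with earlier results of these data known. Named members were the 2 with the highest difference between 9 and 0 h and, per comparison, the 2 called with the largest positive and the 2 with the largest negative contrast; FBtr0163319 was added after its values were seen. Planned gene lists could not be joined to the identifiers, since 0 of them occur among the 15130 genes of the reference table. A deposited note names 4 arrays of a second order of the array design; they were kept and left out as an alternative. Same-numbered arrays at 0 and 9 h did not deviate together (median correlation 0.0447 over 30 pairs, 11 of them over 0.1), so the numbers were not taken to pair arrays. The other alternatives were array centring, quantile normalization, removal of the shared axis, array weights, a filter on dim transcripts, a replicate block, population as a random block and leaving out replicates or arrays.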

Additional observations from a re-analysis of the deposited data

Results flagged for a closer look

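A value far from the rest was looked for in 9 measures over the 21 groups of 4 or 5 arrays. In 9 of these 189 tests a value stood apart, and chance flags about 1 in 20. Replicate 4 of PO on agria at 0 h had a mean of the 72 co-varying members of 9.83 (the others 10.77 to 10.94), and on the same array FBtr0163319 was at 9.35 (the others 10.65 to 10.73). The mean of the 28 steady members was 11.09 on replicate 3 of SQ on agria at 0 h (the others 10.89 to 10.92). On replicate 2 of PO on organ pipe at 18 h, FBtr0175295 was low at 10.45, and FBtr0162005 and FBtr0173959 were high at 12.51 and 11.67. FBtr0175295 was at 12.01 on replicate 4 of PO on organ pipe at 9 h, FBtr0171513 at 12.41 on replicate 3 of PP on agria at 0 h, and FBtr0169155 at 10.39 on replicate 1 of OPNM on agria at 18 h.

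Changes with time differed between groups by the limma interaction for 5 named members. Between SQ and PP the change from 0 to 9 h differed by 1.16 for FBtr0173286, by 0.89 for FBtr0162005 and by -1.34 for FBtr0175295. Between Baja California and Sonora it differed by 0.85 for FBtr0175295, which became a member mainly through its rise in PP. The change from 9 to 18 h differed between these regions by 0.48 for FBtr0173959, by -0.55 for FBtr0169155 and by -0.54 for FBtr0173286.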

How the results depend on the processing

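Counts below are members called, or members picked again by the rule. Where no share of all transcripts stands beside a count, the count shows how calls moved and is not a result about the members. Array weights raised the calls for level from 33 to 50 (regions; 46.5% of all transcripts), 21 to 41 (OPNM and PO; 30.8%), 38 to 84 (SQ and PP; 47.1%) and 0 to 1 (diet; 0.95%). They raised those for the 9 h change from 1 to 18 (14.4%), 0 to 1 (1.67%) and 9 to 89 (34.1%) in the same order and from 0 to 69 (30%) for diet inside OPNM, and those for the later change from 6 to 10 (9.14%), 0 to 1 (0.805%), 0 to 69 (38.3%) and, for diet, 0 to 3 (5.8%). With the shared axis removed, 54 members were called for region level (40.5% of all transcripts) and 16 for SQ against PP level (10.7%). The rule then picked 28 of the 100 again, 27 of them steady, but the kinds had been split by loading on this axis. A deposited note names 4 arrays from a second order of the design, and for 1 of them its position number and its sample may mean different arrays (the sample was used). Without the 4, SQ against PP level had 17 calls. Without the 2 arrays of PP on organ pipe it had 60, and the 9 h change of SQ against PP 41. Without OPNM on agria, OPNM against PO level had 13 calls, region by 9 h 0 and region by the later change 28, and 55 members were picked again. With population as a random block the region comparisons had 15, 0 and 3 calls. A limit of 0.10 picked 63 members again.

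The replicate block left every count as it was, at 33, 21, 38 and 0 for level, 1, 0, 9 and 0 for the 9 h change, 6, 0, 0 and 0 for the later change and 0 for diet inside OPNM. Without each replicate number in turn, and without each single array in turn, the ranges were 26 to 33 and 31 to 41 for region level, 13 to 21 and 18 to 22 for OPNM against PO level, 9 to 54 and 17 to 73 for SQ against PP level, 0 to 1 and 1 to 1 for region by 9 h, 2 to 10 and 6 to 52 for SQ against PP by 9 h, 3 to 6 and 6 to 7 for region by the later change, and 0 to 1 and 0 to 1 for diet inside OPNM. Members picked again ranged over 76 to 97 and 80 to 100, and members higher at 9 h in all combinations over 25 to 56 and 25 to 70, the 70 without replicate 4 of PP on agria at 9 h. SQ against PP level moved by over 1.5 times without any of 10 single arrays, 7 of them from PP. The cause of these changes was not tested. Of 274 values of named members under an alternative, 248 kept their direction and call, 26 kept their direction but missed the threshold, and 0 reversed. The number of arrays per group, 3 to 5, limits the precision, most of all for the co-varying members.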
